A study of Drosophila melanogaster with 23 samples.

Results

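The features described here are those of 2 lipase genes of Drosophila melanogaster, mag (magro, Entrez 40267, chromosome arm 3L) and CG5966 (Entrez 31532, X chromosome). They were found by gene symbol in the platform annotation, which gave 1 feature for each gene, so 2 of the 6101 features on the array. Both genes had been picked for their large range of expression among strains, so that range and the differences between single strains are given as a description, without a test. The contrast of strain origins and the relation between both genes, which were not the basis of the choice, were tested. The contrast rests on the same strain levels as the range, so its p-values are not free of the choice.

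Expression was measured in adult males of 8 strains on 23 2-colour arrays. The Zimbabwe strains were Zimbabwe2, Zimbabwe29, Zimbabwe30 and Zimbabwe53, and the other strains were Canton S, Hikone R, Oregon R and St Louis. No treatment and no engineered allele is named for any strain. Flies grew at 25 °C, and newly emerged males were aged without females for a further 3 to 4 days. RNA extracted from batches of 8 to 12 whole males was combined into a single pool per strain. Repeated arrays of a strain therefore repeat the measurement and not the flies, and the errors of single strains cover no spread between pools of flies. In whole males, fewer cells that make a transcript and less transcript per cell cannot be told apart.

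Triglyceride lipases release fatty acids from fat. In the fly, mag encodes a lipase of the acid lipase family that is secreted into the midgut, where it breaks down dietary triglyceride and cholesterol esters, and its gene is a target of the nuclear receptor Hr96. CG5966 encodes a predicted triglyceride lipase of the pancreatic lipase family, and its transcript is known to be raised in starved flies. Fat that is stored in the fat body is mobilised by lipases of which Brummer (bmm) is the best known.

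A pair of different strains was compared on 21 arrays, and the remaining 2 set a strain against itself. Values were log ratios of the channels, read as log10, converted to log2, and centred on each array's median. mag and CG5966 each had a value on 20 arrays. The sources used here do not say which channel formed the numerator. Every signed value below is therefore written as if channel 1 were the numerator, and if channel 2 was, every sign turns and the 2 ends of every order change places. Sizes, and which strains share a side, do not depend on this. Arrays of a pair of strains with exchanged channels were anticorrelated over all features in each of 8 such pairs (r from -0.81 to -0.29), so within these pairs the ratio was formed in the same channel order. A mean dye offset per gene, from the exchanged pairs, was subtracted (0.18 log2 for mag from 6 complete exchanged pairs, 0.05 log2 for CG5966 from 5).

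The levels of mag did not overlap between strain origins, which also held for 6.65% of all features. The difference did not pass the test across all features given below. The 8-strain mean parted the 4 Zimbabwe strains from the 4 other strains, with Zimbabwe2 and Oregon R at the extremes. The array that joined these extremes directly, Oregon R over Zimbabwe2, gave a log2 ratio of 2.19. Oregon R over Zimbabwe53 gave 1.34 and 1.74 on 2 arrays with exchanged channels. Canton S over Oregon R gave -0.78 on the only array of this pair with a value. In these 3 pairs Oregon R thus stayed on the same side of its partner, and only Oregon R and Zimbabwe53 had both arrays, 0.41 apart, to show the spread. Canton S over Zimbabwe2 gave 1.30, and Zimbabwe2 over Zimbabwe53 gave -0.68, each on 1 array. Zimbabwe2 therefore lay on the same side of its 3 partners, which included another Zimbabwe strain.

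The remaining pairs of mag were closer. Canton S over Zimbabwe29 gave 0.80 and 0.31, and Canton S over Zimbabwe30 gave 0.47 and 0.43. Canton S over Zimbabwe53 gave 0.57 on 1 array, and Hikone R over Zimbabwe29 gave 0.89 on 1 array. All 4 pairs had the Zimbabwe strain on the side of Zimbabwe2. St Louis over Zimbabwe53 gave 0.58 and 0.53, St Louis over Zimbabwe30 gave 0.34 on 1 array, and Zimbabwe30 over Zimbabwe53 gave 0.43 and 0.23. Canton S over Hikone R, both strains from outside the Zimbabwe group, gave -0.09 and -0.20, the smallest mean of any pair of mag. No pair with exchanged channels turned its sign.

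**Figure D1:**
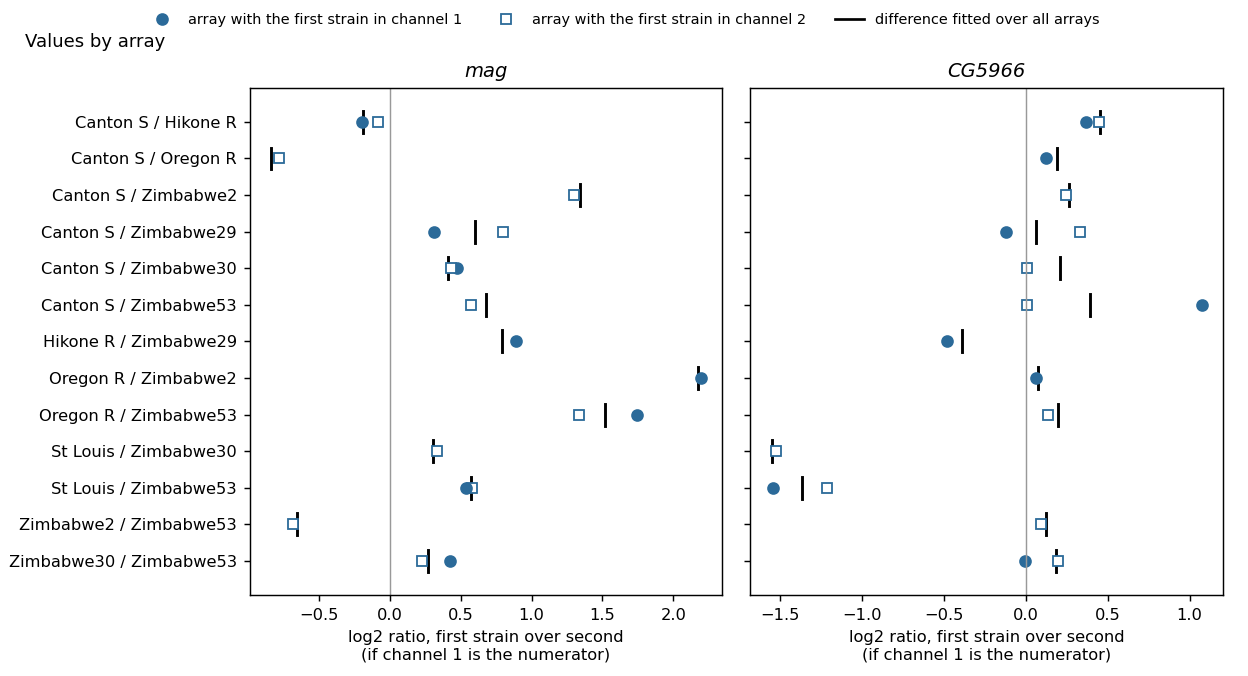
Log2 ratio of mag (left) and CG5966 (right) on each array, in rows by pair of strains, with the first strain of a pair over the second. Filled circles are arrays with the first strain in channel 1, open squares arrays with it in channel 2, both after the dye offset, and bars are the differences fitted over all arrays; Oregon R over Zimbabwe2 reaches 2.19 for mag, both pairs with St Louis lie far from the others for CG5966, and the 2 arrays of Canton S over Zimbabwe53 lie 1.07 apart for CG5966.

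Strain levels were then fitted over the 13 pairs of strains that shared an array, relative to the mean of the 8 strains. Both arrays of a pair were averaged before the fit, so the gap between them does not enter the SE. With single arrays fitted instead, the SE of the range was 0.12 rather than 0.10 for mag, and 0.20 rather than 0.13 for CG5966. For mag the Zimbabwe strains were at -1.07 ± 0.08 (Zimbabwe2, 3 arrays), -0.42 ± 0.05 (Zimbabwe53, 8 arrays), -0.34 ± 0.09 (Zimbabwe29, 3 arrays) and -0.15 ± 0.06 (Zimbabwe30, 5 arrays; all errors of levels are SE). The other strains were at 0.16 ± 0.09 (St Louis, 3 arrays), 0.26 ± 0.05 (Canton S, 9 arrays), 0.45 ± 0.09 (Hikone R, 3 arrays) and 1.10 ± 0.07 (Oregon R, 4 arrays). The ends, Oregon R and Zimbabwe2, lay 2.18 ± 0.10 apart (SE), or 4.52-fold. Oregon R and Zimbabwe2 each stood clear of the next strain, by 0.65 ± 0.13 from Hikone R and by 0.66 ± 0.10 from Zimbabwe53. Between them the order was less sharp. Canton S and St Louis differed by 0.11 ± 0.11, Zimbabwe30 and Zimbabwe29 by 0.19 ± 0.12 and Zimbabwe29 and Zimbabwe53 by 0.08 ± 0.12, so these neighbours did not differ beyond 2 SE. Over the 28 possible pairs of strains, the median size of the difference was 0.67. Without Oregon R the range of mag was 1.53, or 2.89-fold.

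CG5966 had another pattern. St Louis alone stood far from the other 7 strains, which lay close together. St Louis over Zimbabwe53 gave log2 ratios of -1.21 and -1.55 on 2 arrays with exchanged channels, and St Louis over Zimbabwe30 gave -1.53 on 1 array. These 3 arrays, the only ones that carried St Louis, gave larger sizes than any other array of CG5966. Away from St Louis, Canton S over Hikone R gave 0.44 and 0.37, and Hikone R over Zimbabwe29 gave -0.48. Hikone R thus lay on the same side of both its partners, the side on which St Louis lay. Canton S over Zimbabwe29 gave 0.33 and -0.12, so that the arrays with exchanged channels differed in sign. The other pairs were close to 0. Oregon R over Zimbabwe2 gave 0.06, Oregon R over Zimbabwe53 gave 0.14, and Canton S over Oregon R gave 0.12. Canton S over Zimbabwe2 gave 0.24 and Canton S over Zimbabwe30 gave 0.01. Zimbabwe2 over Zimbabwe53 gave 0.10, and Zimbabwe30 over Zimbabwe53 gave -0.01 and 0.20. Oregon R and Zimbabwe2, the extremes of mag, thus differed little in CG5966.

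Canton S over Zimbabwe53 was the exception. It gave 1.07 on the replicate 1 array, with Canton S in channel 1, and 0.01 on the replicate 2 array, with the channels exchanged. On this pair of arrays 97.7% of features had a smaller gap, and the median gap was 0.18. The value of CG5966 between these strains thus rests on which array is used. mag had no value on the replicate 1 array, so the arrays could not be compared for it.

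The fitted levels of CG5966 in the Zimbabwe strains were 0.36 ± 0.10 (Zimbabwe29, 3 arrays), 0.21 ± 0.08 (Zimbabwe30, 4 arrays), 0.15 ± 0.09 (Zimbabwe2, 3 arrays) and 0.02 ± 0.06 (Zimbabwe53, 8 arrays). The other strains were at 0.42 ± 0.05 (Canton S, 9 arrays), 0.22 ± 0.09 (Oregon R, 3 arrays), -0.03 ± 0.10 (Hikone R, 3 arrays) and -1.34 ± 0.10 (St Louis, 3 arrays). St Louis lay 1.53 from the mean of the other 7, or 2.90-fold, and 1.31 ± 0.16 from Hikone R, its neighbour in the order. None of the 6 other steps between neighbours exceeded 2 SE, the widest being 0.13 ± 0.15 between Zimbabwe29 and Oregon R. Strains farther apart in the order did differ. Without St Louis, 6 pairs of strains lay beyond 2 SE of this fit, the widest being Canton S and Hikone R at 0.45 ± 0.10. This SE leaves out the gap between both arrays of a pair. The range was 1.76 ± 0.13 from Canton S to St Louis, or 3.38-fold, but only 0.45, or 1.37-fold, among the 7 strains without St Louis. Over the 28 pairs of strains, the median size of the difference was 0.23. When replicate 1 of Canton S over Zimbabwe53 was left out, the range was 1.57, Canton S moved to 0.26 and Zimbabwe30, at 0.38, replaced it at that end. St Louis was then at -1.18 and still the strain farthest from the mean.

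**Figure D2:**
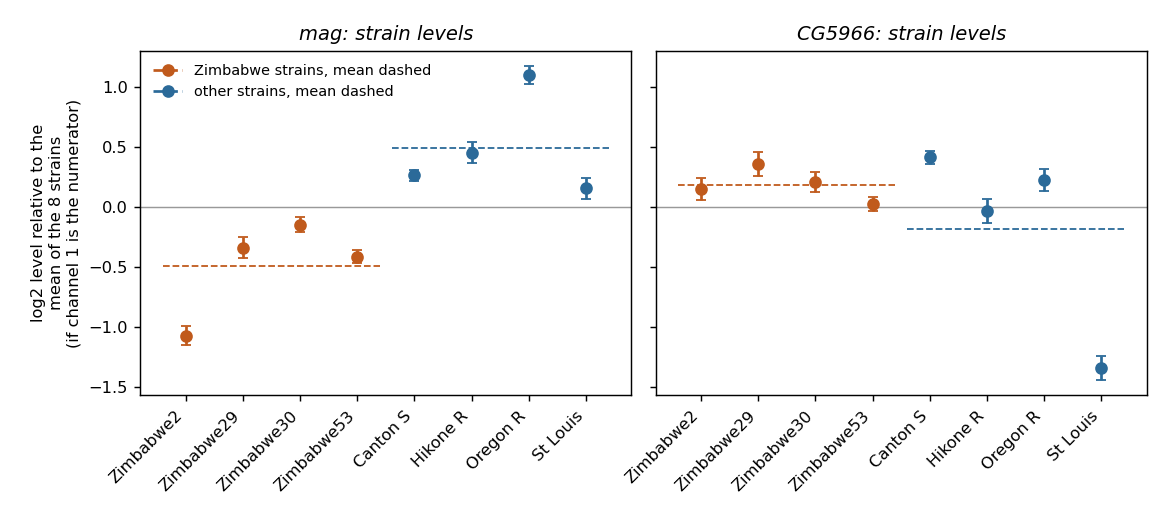
Fitted log2 level of mag (left) and CG5966 (right) in each strain, relative to the mean of the 8 strains, with SE bars of the fit over pairs of strains. Zimbabwe strains are left of the other strains, and dashed lines are the group means. For mag the Zimbabwe strains run from -1.07 to -0.15 and the other strains from 0.16 to 1.10, while for CG5966 the groups overlap and St Louis alone lies at -1.34.

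Among the 4841 features fitted, mag had the 83rd and CG5966 the 120th largest range, and among 1409 named genes the 5th and the 12th. The median range of all features was 0.47, or 1.39-fold. Both genes passed the moderated F test of limma for differences among strains, as did 45.2% of all features and 38.5% of named genes. Both genes also ranged beyond 2-fold, as did 9.21% of features and 5.25% of named genes. The genes were chosen from these values, so nothing is read from them here.

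The repeatability of the values was examined in ways that set arrays against each other. Each pair of strains was predicted from the other 12 pairs, which join the same strains by other routes. For mag the measured and predicted differences lay between 0.03 and 0.20 apart, with a median gap of 0.10. Oregon R over Zimbabwe2 was 2.19 on its own array and 2.16 from the others, and Canton S over Zimbabwe2 was 1.30 and 1.37. The large differences of mag were thus found by direct and indirect routes, and no gap came near the 4.52-fold range. For CG5966 the gaps lay between 0.02 and 0.35, with a median of 0.13. St Louis over Zimbabwe30 was -1.53 on its own array and -1.57 from the others. The widest gaps were at Canton S over Zimbabwe30 (0.01 against 0.35 predicted) and Canton S over Zimbabwe53 (0.54 against 0.22). The array that stood apart enters the measured value of the second and the prediction of the first. It also enters the dye offset that was subtracted from every array of CG5966. Its pair gave an offset of 0.58, and the other complete exchanged pairs gave -0.18 to 0.01. Without the dye offset the range of CG5966 was 1.75, with the same strains at the ends. The residual SD of the fit, which is that of pair means, was 0.09 for mag and 0.15 for CG5966, against a median of 0.18 over all features. It leaves out the gap between exchanged arrays. For mag this gap exceeded that of 91.3% of features in Oregon R over Zimbabwe53 and 85.5% in Canton S over Zimbabwe29, and 12.2% to 56.2% in its other complete pairs. For CG5966 it exceeded 97.7% in Canton S over Zimbabwe53, 85.1% in St Louis over Zimbabwe53 and 82.6% in Canton S over Zimbabwe29. In its other complete pairs it exceeded 20.9% and 57.7%.

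**Figure D3:**
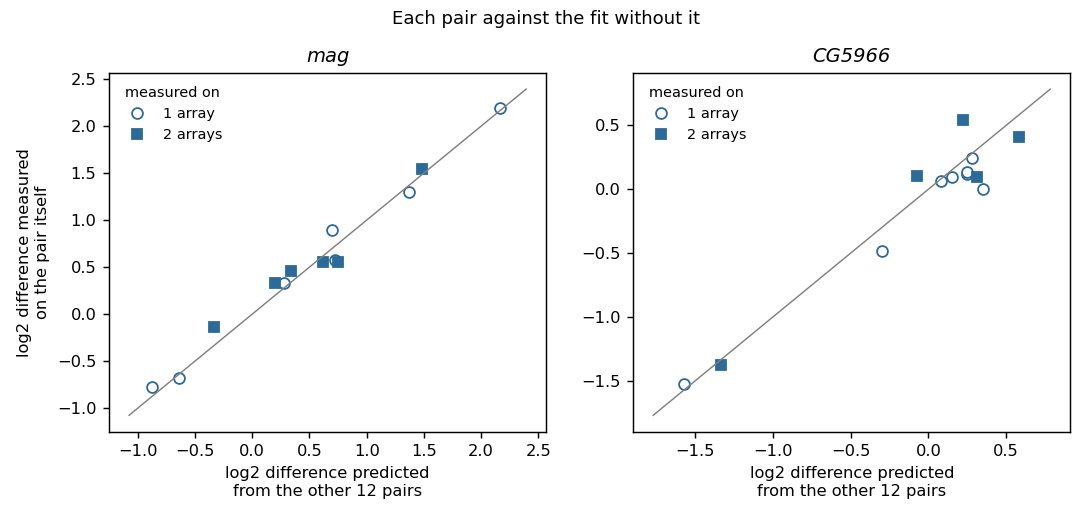
Log2 difference of each pair of strains as measured on its own arrays (vertical axis) against the value predicted from the other 12 pairs (horizontal axis), for mag (left) and CG5966 (right), with a line of equality. Open circles are pairs with a value on 1 array and filled squares pairs with 2; mag stays within 0.20 of the line, and CG5966 within 0.35.

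The arrays of a strain against itself show the size of ratios without a difference in RNA. On the array of Canton S against itself, mag gave -0.24 and CG5966 0.19 before the dye offset, where the SD over 4341 features was 0.17. On that of Zimbabwe53 against itself CG5966 gave 0.03, where the SD was 0.14, and mag had no value. On the Canton S array the value of mag lay on the opposite side from its dye offset of 0.18 in the exchanged pairs, and 87.9% of features had a smaller size. After the dye offset, as used for the other arrays, mag was at -0.42 and CG5966 at 0.14 on the Canton S array. For mag this size exceeds the 0.30 between the nearest strains of both origins, given below. Without the dye offset the range of mag was 2.31, and the same strains stood at the ends.

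The next comparison asked whether the Zimbabwe strains differed as a group from the other strains, with the strain as the unit. mag averaged -0.49 ± 0.40 in the Zimbabwe strains and 0.49 ± 0.42 in the other strains (SD, n = 4 each). The difference was -0.99 ± 0.24 (SE), or 1.98-fold. The groups did not overlap: the nearest strains of both groups, Zimbabwe30 and St Louis, lay 0.30 ± 0.10 (SE) apart. Such a lack of overlap was found in 6.65% of all features and in 6.39% of named genes. The exact two-sided permutation test of origin gave p = 0.0286, the smallest value that 4 against 4 strains allow. In limma the adjusted p over all 4841 features was 0.131 (unadjusted p = 0.0025), so mag did not pass the comparison across features, in which 0.248% of features (12) passed and 11.2% had an unadjusted p under 0.05. A difference at least as large as that of mag, in groups that did not overlap, was found in 29 of all 4841 features, mag included. Among the 1409 named genes, 4 had a difference of at least that size, and of these mag and CG5953 had groups that did not overlap. Since mag was picked for its large range, the size of its difference is partly set by that choice, and its p-values are not free of it.

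CG5966 averaged 0.18 ± 0.14 in the Zimbabwe strains and -0.18 ± 0.79 in the other strains (SD, n = 4 each), and the groups overlapped. The difference of 0.37 ± 0.33 (SE) did not pass (adjusted p = 0.725 in limma, and exact two-sided permutation p = 0.629). The medians were close, at 0.18 in the Zimbabwe strains and 0.09 in the other strains. The wide spread of the other strains came from St Louis.

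Array titles begin with C or E, which the labels do not explain, and the contrast was repeated within each kind. On the 15 E arrays with a value of mag, all 8 strains were represented, the difference was -1.02 and the groups did not overlap. On the 4 C arrays with a value, which carried Zimbabwe30, Zimbabwe53, Canton S and Oregon R, it was -0.74, again without overlap. For CG5966 the difference was 0.41 on 13 E arrays. On 5 C arrays it was -0.37, of the opposite sign and without overlap, but these carried no St Louis and included the array that stood apart. No test was made within the kinds of title, and the share of all features without overlap was not computed there. These arrays also enter the main fit, so a lack of overlap within a kind of title is no further support.

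The 2 genes were then set against each other. Over the 8 strains their levels showed no detectable relation. Pearson's r was -0.07 (exact permutation p = 0.839) and Spearman's rho was 0.10 (exact permutation p = 0.84). Adjusted over these 2 tests, both permutation p-values were 0.84. Without Oregon R and Zimbabwe2, the strains farthest from the median of mag, r was -0.24 (n = 6, exact permutation p = 0.744), and without St Louis it was 0.068 (n = 7, exact permutation p = 0.879). With so few strains only a strong relation could have been found. The strain levels of both genes come from nearly the same arrays. Of the 13 pairs of strains, mag had the larger size in 10, and CG5966 in Canton S over Hikone R and in both pairs with St Louis. The strain that stood apart for CG5966 was thus unremarkable for mag, at 0.16 ± 0.09 (SE). Oregon R and Zimbabwe2, 2.18 ± 0.10 apart in mag, differed by 0.07 ± 0.12 in CG5966 (SE).

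**Figure D4:**
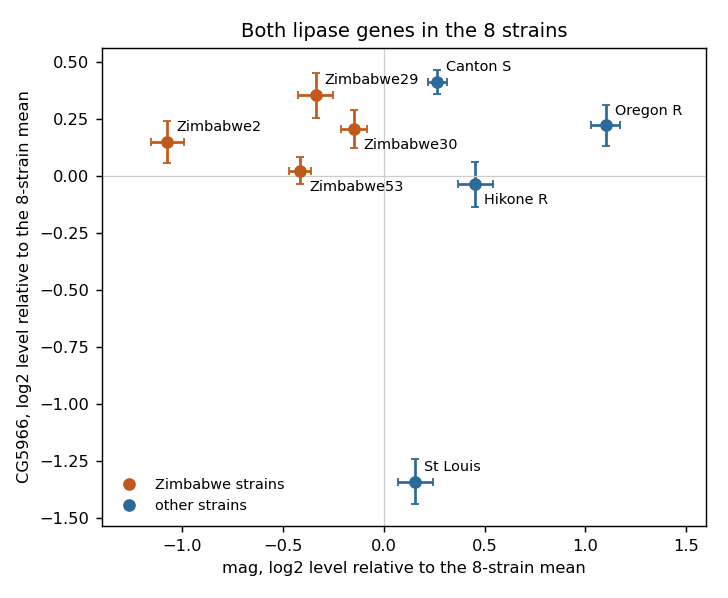
Fitted log2 levels of CG5966 (vertical axis) against those of mag (horizontal axis) in the 8 strains, with SE bars of the fit over pairs of strains, as if channel 1 were the numerator. The strains spread along mag from -1.07 in Zimbabwe2 to 1.10 in Oregon R, and St Louis, at -1.34 for CG5966, lies apart from the other 7.

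Named genes with strain profiles most like those of both lipases were sought among the 541 other named genes past the F test. Likeness was Pearson's r over the 8 strain levels, given as a description with no test. Choice by r favours genes that share the extreme strains of the lipase, so shared ends are no separate result. For mag the 5 most alike were CG12075 (r = 0.90), ftz-f1, which encodes a nuclear receptor (0.87), Ugt35A1, a UDP-glycosyltransferase of detoxification (0.87), CG9297 (0.86) and Dhit (0.85). In all 5 genes Oregon R stood at one end, and in all but Ugt35A1 Zimbabwe2 stood at the other. Ugt35A1 and CG9297 ranged widely, by 3.04-fold and 2.56-fold, whereas CG12075 and ftz-f1 ranged by only 1.33-fold and 1.32-fold. The 3 genes with the most opposite profile were Nipsnap (r = -0.90), CG7778 (-0.90) and Ctl1, a choline transporter-like gene (-0.89). All 3 had Zimbabwe2 at one end.

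For CG5966 the 5 most alike were sphe, a serine protease relative (r = 0.92), CG7601 (0.92), SP1173 (0.89), NimB1, a gene of the Nimrod family of phagocytosis and clotting factors (0.86), and CG31778 (0.83). Each had St Louis at one end, which the choice by r favours. Relative to the other 7 strains, St Louis differed by 2.37-fold in sphe and by 1.64-fold, 1.69-fold and 1.73-fold in CG7601, SP1173 and NimB1. CG12129 was the most opposite (r = -0.94), with St Louis 3.60-fold from the other 7 strains, followed by CG9109 (-0.85) and CG5854 (-0.82).

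**Figure D5:**
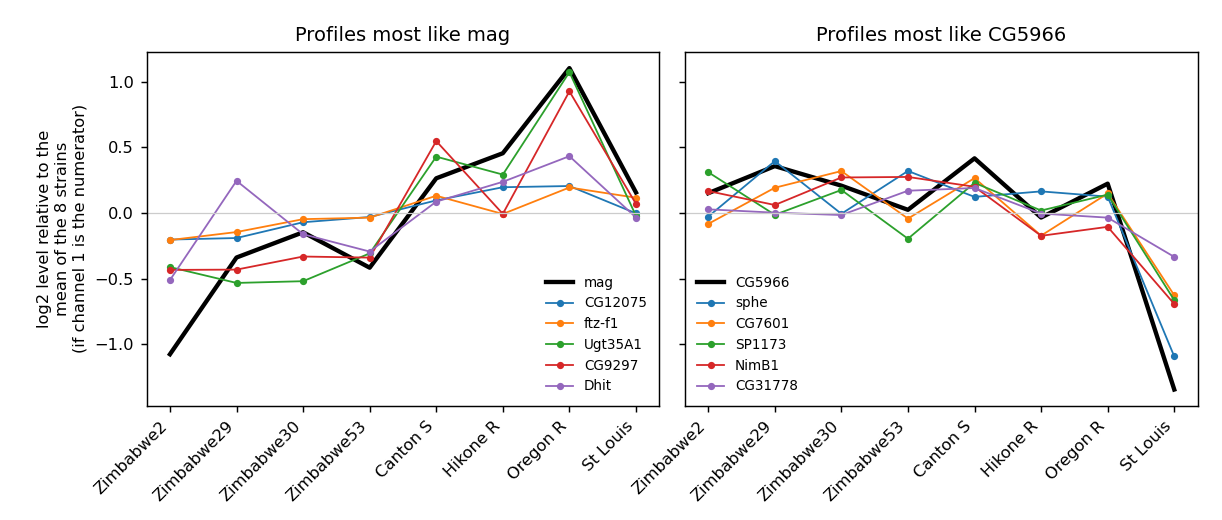
Fitted log2 levels, relative to the 8-strain mean, of mag and the 5 named genes most like it (left) and of CG5966 and the 5 most like it (right), with Zimbabwe strains left of the other strains. Thick black lines are mag and CG5966. The genes most like mag have Oregon R at one end, and those most like CG5966 have St Louis at one end. Choice by r favours such shared ends.

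Other genes of fat digestion and fat use were examined as lists. Of the listed genes, 29 besides mag and CG5966 were in the fit as named features, and 15 of them passed the F test among strains, beside 38.5% of all named genes. Their median range was 1.41-fold, against 1.39-fold for all features. That is a wider reference than named genes, since 9.21% of all features but 5.25% of named genes ranged beyond 2-fold. The lists were short on this array, so the counts speak for the genes in the fit only. The counts per list that follow stand beside the same 38.5% of named genes, and 45.2% of all features. Nothing is read from them about a list.

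Among 5 genes of the lipase list in the fit, 4 passed the F test. bmm, the fat storage lipase Brummer, differed 2.06-fold between Zimbabwe53 and St Louis (log2 1.04 ± 0.12 SE, adjusted p = 5.31e-05 in limma). St Louis was thus an extreme strain in bmm as in CG5966, and on the same side. CG31683 differed 1.70-fold, with Zimbabwe2 at one end. rdgA, a diacylglycerol kinase, differed 1.33-fold, and Pisd, a phosphatidylserine decarboxylase matched through an older name, 1.82-fold; neither of these enzymes is a lipase. inaE, a diacylglycerol lipase, did not pass (adjusted p = 0.543 in limma).

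Of 11 genes of lipid storage and synthesis in the fit 5 passed: FASN1, fatty acid synthase (1.89-fold), bgm and Acsl, both long-chain acyl-CoA synthetases (1.84-fold and 1.55-fold), mdy, which encodes the diacylglycerol acyltransferase midway (1.71-fold), and mino, a glycerol-phosphate acyltransferase (1.44-fold). In FASN1 the extreme strains were Zimbabwe2 and Oregon R, as in mag, but with the ends exchanged. Lsd-2, a perilipin of lipid droplets, spanned only 1.15-fold (adjusted p = 0.966 in limma). All 3 genes of the fatty acid oxidation list in the fit passed: Acat1, an acetyl-CoA acetyltransferase (2.76-fold, with St Louis at one end), wal, a subunit of the electron transfer flavoprotein (1.48-fold), and Hmgs, hydroxymethylglutaryl-CoA synthase (1.48-fold), an enzyme of mevalonate synthesis rather than of oxidation. None of 3 genes of lipid uptake and transport in the fit passed in limma, LpR2, a lipoprotein receptor, coming nearest (adjusted p = 0.0516).

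Of 6 metabolic regulators in the fit, chico, the insulin receptor substrate (1.27-fold), and foxo, its downstream transcription factor (1.41-fold), passed. Hr96, the receptor known to act on mag, was not among the named features in the fit. Of the digestive enzyme list, 4 genes were named features on the array, and besides mag and CG5966 only yip7, a serine protease, was in the fit. yip7 differed 4.16-fold between Oregon R and Zimbabwe29, and over the 8 strains r of its levels was 0.80 with mag and -0.04 with CG5966, both given as descriptions. No listed gene passed the comparison of origins in limma. None of the 29 listed markers of females, such as yolk and chorion proteins, was a named feature on the array, so the purity of the male samples was not tested.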

How the data were processed

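Each array was deposited as 1 log ratio per feature, read here as log10 because of its size, since no base is stated. How the authors made these deposited log10 ratios (scanner, spot filter, normalization) is not given in the sources used here, and without spot intensities the signal behind a ratio is unknown, so the number of arrays limits the precision. Arrays had values for 3272 to 4987 features. Of the features, 1943 had 1 gene symbol in the platform annotation, 67 several and 4091 none here; all 1943 matched the RefSeq Release 6 table.

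Values were converted to log2 and centred on the array median. The dye offset was subtracted, both arrays of a pair were brought to 1 direction and their mean taken, and strain levels were fitted to 13 pairs by weighted least squares, with the count of arrays as weight (limma 3.58.1, R 4.3.3). Features needed 10 of 13 pairs and 3 complete exchanged pairs. The threshold was 0.05 after Benjamini-Hochberg adjustment. The F test used 21 arrays; the comparison of origins used 8 strain levels. Permutation tests were exact (scipy 1.17.1). The fit was tested on simulated data.

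Genes named were both lipases, members of the gene lists in the fit, and per lipase the 5 most and 3 least alike named genes by r. The 2 lipases and the lists were chosen with earlier results of these data known. Alternatives were centring, scaling, the dye offset, single arrays, a block for arrays that share a title stem, weights, complete features and leaving out each array. No sequence is shown.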

Additional observations from a re-analysis of the deposited data

How the results depend on the processing

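For mag, Oregon R and Zimbabwe2 stood at the ends, and the Zimbabwe strains did not overlap the other strains, in all 29 settings fitted, the main one included. In the main fit 6.65% of all features had no overlap, and this share is not given for the other settings. The settings share most of their arrays, so their number is no further support for a difference of origins. For CG5966, St Louis was the farthest strain in all 29. The range of mag was 2.49 with scaled arrays and 2.31 without the dye offset, and 2.14 to 2.26 when each array was left out. The range of CG5966 was 1.57 to 1.93 when each array was left out. Canton S stood at the end opposite St Louis in 26 of the 29 settings. Zimbabwe30 replaced it without replicate 1 of Canton S over Zimbabwe53, and Zimbabwe29 without replicate 1 of Canton S over Zimbabwe29. Oregon R replaced it when single arrays were fitted with a dye term per title prefix. Read as log2, the deposited values would give ranges of only 0.66 for mag and 0.53 for CG5966; this setting was chosen after the data were seen, as were the dye term per title prefix and the correlations without St Louis or Oregon R. The difference of origins lay between -1.02 and -0.96 for mag (limma adjusted p 0.104 to 0.152) and between 0.34 and 0.45 for CG5966 (limma adjusted p 0.566 to 0.768) when arrays were left out. The correlation of both genes ranged from -0.14 to -0.04 when arrays were left out; it was 0.068 without St Louis (exact permutation p = 0.879) and -0.26 without Oregon R (exact permutation p = 0.648), the most negative of these settings. All features past the comparison of origins numbered 2 with scaled arrays and 2 to 17 with an array left out; the main count was 12, and it was 2 without replicate 2 of Canton S over Zimbabwe29 or of Canton S over Zimbabwe30, 3 without replicate 1 of Canton S over Oregon R or of Canton S over Hikone R, replicate 2 of St Louis over Zimbabwe53, or the arrays of Zimbabwe2 over Zimbabwe53 or Hikone R over Zimbabwe29, and 6 without that of St Louis over Zimbabwe30. With complete features only, the F test called 1081 of 1727 features and 9 of 14 listed genes. Neither lipase is complete, so neither has a value there. The main fit called 2187 of 4841 features and 15 of 29 listed genes. With an array left out, the F test called 1754 to 2527 features and 13 to 17 listed genes. With the title stem as a replicate block, fitted on single arrays, 2475 features passed the F test, 16 the comparison of origins and 18 of the 29 listed genes the F test; the ranges were 2.14 for mag and 1.69 for CG5966, the differences of origins -0.97 and 0.38, and r -0.10. No title or label says that replicate numbers pair arrays. Averaging features of a gene changes nothing, since each gene has 1. The causes of these shifts were not tested.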

Other observations

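Spots printed next to mag in its block did not share its strain profile: the 4 neighbours had ranges of 0.28 to 0.81 log2 and correlations with mag of -0.50 to -0.14 over the 8 strains. Of the 3 fitted neighbours of CG5966, ranges were 0.52, 0.54 and 1.45 and correlations 0.46, 0.70 and 0.16.

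Along the chromosome, few neighbours were measured. Of the 5 protein-coding genes on either side of mag, only CG5969 was in the fit (1.25-fold range; adjusted p = 0.194 in the moderated F test of limma). Of those around CG5966, only CG4766 was (1.24-fold range; adjusted p = 0.941 in the moderated F test of limma). Neither of these neighbours passed the test of strain differences.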
